A study of Mus musculus with 6 samples.

Results

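The nuclear genes for the subunits of the 5 complexes of oxidative phosphorylation were examined in mouse bone-marrow-derived macrophages (BMDM), phagocytes grown in culture from marrow precursors. Members were the rows of the expression table whose symbols begin with Ndufa, Ndufb, Ndufc, Ndufs or Ndufv (complex I), name 1 of the 4 Sdh subunits (complex II), or begin with Uqcr (complex III), Cox4 to Cox8 (complex IV) or Atp5 (complex V). The pattern matched 112 rows. Of these, 14 had -ps in the symbol and 10 were below 0.5 FPKM (fragments per kilobase of transcript, scaled to the library's total) in more than 3 of the 6 libraries. The other 88 were members, out of 12084 genes tested and 55401 rows in all. Complex I had 38 members besides 8 assembly factors named Ndufaf, complex II had 4, complex III had 8, complex IV had 13 and complex V had 17. Ndufb4c and Cox6c2 are annotated as processed pseudogenes, and the other 86 members are protein-coding. No member reached 0.5 FPKM in 1 group alone. Just inside the minimum, the assembly factor Ndufaf2 had 0.680, 0.473 and 0.663 FPKM in L-OHP+FUC macrophages and 1.08, 1.38 and 1.12 FPKM in L-OHP macrophages. Just outside it, the muscle isoform Cox7a1 was listed at 0, 0.30 and 0.110 FPKM with L-OHP+FUC and had 0.989, 0.9495 and 0.482 FPKM with L-OHP.

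Complexes I and II pass electrons from NADH and succinate to coenzyme Q, complex III passes them on to cytochrome c, and complex IV passes them to oxygen. Complexes I, III and IV pump protons across the inner mitochondrial membrane, and complex V, the ATP synthase, uses the returning protons to make ATP. Apart from complex II, each complex joins subunits encoded in the nucleus with a few encoded in mitochondrial DNA, and its nuclear subunits range from large catalytic and core proteins to accessory proteins of a single membrane helix.

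The samples were 3 labelled L-OHP+FUC and 3 labelled L-OHP. L-OHP+FUC macrophages were held for 12 h in 250 µg/ml fucoidan, a seaweed polysaccharide rich in sulfated fucose, before 12 h of 5 µM L-OHP. L-OHP macrophages received 5 µM L-OHP for 12 h without fucoidan. L-OHP is the usual abbreviation of oxaliplatin, a platinum drug used in chemotherapy. All cells came from the marrow of tibia and femur and had been cultured for 7 days in medium with serum and L929-conditioned medium, a source of macrophage growth factor. The labels used here give no strain, sex or age. Nothing in them tells whether the 3 samples of a group were grown apart, and each p-value is therefore set against a spread that may be technical. Every group had the drug, so each difference is that between drug-exposed macrophages with and without fucoidan.

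RNA was sequenced after ribosomal RNA had been removed, so transcripts with and without a poly(A) tail were both read. The table holds FPKM and no read counts. Genes at 1 FPKM or more numbered 9841 to 10188 in L-OHP+FUC libraries and 10711 to 10813 in L-OHP libraries. All 9 macrophage markers were tested, and their summed level was 13620 to 14610 FPKM with L-OHP+FUC and 12660 to 18010 FPKM with L-OHP, most of it Lyz2. Single markers moved in both directions. Csf1r passed the threshold given below as higher, and Mertk and Fcgr1 as lower (log2 fold changes 0.47, -0.74 and -0.69). Of all genes tested, 27.0% passed. Summed levels of the neutrophil markers were 5.45 to 6.35 FPKM with L-OHP+FUC and 3.79 to 4.26 FPKM with L-OHP. Those of the T cell markers were 2.07 to 2.43 FPKM with L-OHP+FUC and 3.65 to 5.65 FPKM with L-OHP, nearly all of it Cd4, with 2 of the 5 markers at 0 throughout. Those of the fibroblast markers were 7.60 to 8.03 FPKM with L-OHP+FUC and 4.88 to 11.8 FPKM with L-OHP, and the B cell, dendritic, erythroid and endothelial lists summed to 3.00 FPKM or less in every library. L-OHP replicate 2 stood apart in the measures used here: its mitochondrial chromosome held 5.99% of the summed FPKM, below the 8.84% to 9.45% of L-OHP+FUC libraries and the 7.497% and 9.36% of the other L-OHP libraries. Values from bulk RNA do not separate fewer cells of a type from less RNA per cell.

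In fucoidan-pretreated macrophages, the members that passed the threshold as higher were mostly large core or catalytic subunits, apart from Ndufa9 and the membrane anchor Sdhc, and those that passed as lower encode 168 residues or fewer. Of 88 members, 7 rose, namely Uqcrc1, Ndufa9, Atp5a1, Atp5b, Uqcrfs1, Ndufv1 and Sdhc. Another 16 fell, namely Atp5k, Cox7b, Atp5mpl, Uqcrh, Atp5j, Uqcr10, Ndufb3, Ndufa4, Ndufa3, Cox7c, Atp5md, Ndufa5, Cox6c, Ndufaf2, Ndufs5 and Atp5j2. The other 65 did not pass an adjusted p of 0.05 in limma with Benjamini-Hochberg adjustment over all genes tested. The members' shares, 7.95% higher and 18.2% lower, stood near those of all genes tested, 7.67% higher (927 of 12084) and 19.3% lower (2335 of 12084). The centre of the changes was near that of other genes as well. The median log2 fold change, L-OHP+FUC over L-OHP on the log2(FPKM + 1) scale, was -0.09 over the members and -0.10 over all genes tested. Rises and falls cancel in this median, so it does not measure the size of change. The split of calls depended on the scaling. It was 10 higher and 11 lower after median ratio rescaling and 12 higher and 11 lower after quantile normalization. After each library's trends on GC content and transcript length had been taken out, it was 11 higher and 9 lower, against 11.5% higher and 11.9% lower over all genes tested. The median of all genes moved to -0.04, 0.03 and 0.01 under these 3 settings, and the 7 higher and 16 lower members kept their sign under each. Leaving out 1 library at a time moved the counts as well, to 2 higher and 8 lower without L-OHP+FUC replicate 1, 1 higher and 8 lower without L-OHP+FUC replicate 2, 10 lower without L-OHP+FUC replicate 3 and 9 lower without L-OHP replicate 1. Uqcrc1, Atp5k, Atp5j, Cox7b, Atp5mpl, Uqcr10 and Ndufa4 passed with any 1 library left out, and the other 16 called members did not.

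**Figure D1:**
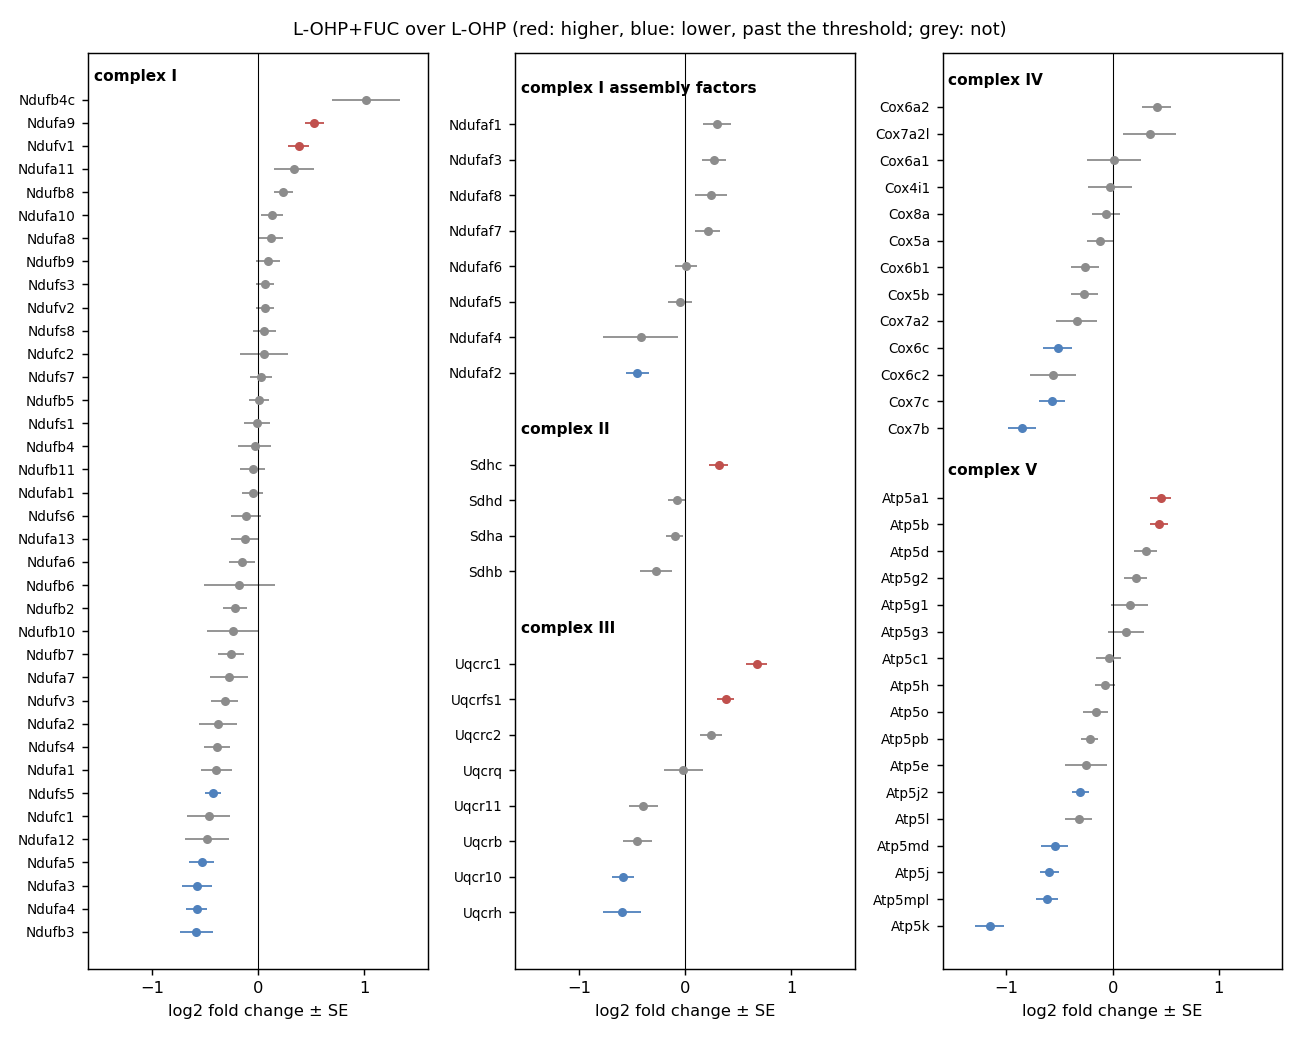
Log2 fold change ± SE of 87 of the 88 members, L-OHP+FUC over L-OHP (horizontal axis), by complex and ordered within each by size. Red points passed the threshold as higher (7), blue points as lower (16) and grey points did not pass (64); within complexes III and V the red points are large core or catalytic subunits and the blue points small ones.

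Complex III showed both directions most plainly. Of its 8 nuclear members 2 rose and 2 fell, and the groups overlapped for only 1, Uqcrq. Over all members the groups overlapped for 47 of 88, and over all genes tested for 6407 of 12084. Uqcrc1, the first of the pair of large core proteins on the matrix side, had 43.4, 39.1 and 35.0 FPKM in L-OHP+FUC macrophages and 24.8, 24.1 and 23.5 FPKM in L-OHP macrophages. Every L-OHP+FUC library lay above every L-OHP library, and the log2 fold change was 0.67 ± 0.10 (SE; adjusted p = 0.00784). This was the highest fold change of a called member. The gene (ENSMUSG00000025651) lies on the plus strand at chr9:108936633-108949623 of GRCm38, the assembly of mm10. Uqcrfs1, the Rieske iron-sulfur protein that takes electrons from coenzyme Q, had 50.2, 49.9 and 49.6 FPKM with L-OHP+FUC and 38.8, 39.8 and 35.7 FPKM with L-OHP. The groups were apart, and the log2 fold change was 0.38 ± 0.08 (SE; adjusted p = 0.0176). Uqcrc2, the other core protein, had 32.0, 33.3 and 35.4 FPKM with L-OHP+FUC and 31.8, 25.4 and 28.0 FPKM with L-OHP. Its groups did not overlap either, though the gap was small and it did not pass (log2 fold change 0.24, adjusted p = 0.129). With trends on GC content and transcript length taken out, Uqcrc2 passed as higher (0.39, adjusted p = 0.0201). For Uqcrfs1, dropping L-OHP+FUC replicate 1 or 2 gave adjusted p = 0.0640 or 0.0740, and dropping replicate 1 of L-OHP gave 0.0558, so that it did not pass in those fits.

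Apart from Uqcrq, the small subunits of complex III lay on the other side in the uncorrected fit. Uqcrq, of 82 residues, had a log2 fold change of -0.02 (adjusted p = 0.942). Uqcr10, a subunit of 64 residues, had 34.0, 39.7 and 34.8 FPKM in L-OHP+FUC macrophages and 59.4, 54.6 and 50.02 FPKM in L-OHP macrophages. All L-OHP+FUC libraries were lower, with a log2 fold change of -0.58 ± 0.10 (SE; adjusted p = 0.0119). Uqcrh, the acidic hinge protein that helps cytochrome c bind, had 22.8, 27.4 and 23.1 FPKM with L-OHP+FUC and 47.2, 28.8 and 38.3 FPKM with L-OHP. Its groups were apart by a narrow gap, set by the 28.8 FPKM of L-OHP replicate 2, and it passed just under the threshold (log2 fold change -0.60, adjusted p = 0.0491). Uqcrh passed without L-OHP replicate 2 (adjusted p = 0.0150) and not without any other library (adjusted p = 0.0863 to 0.144). Uqcr11 and Uqcrb had log2 fold changes of -0.40 and -0.45 with groups apart and adjusted p-values of 0.0705 and 0.0526. With trends on GC content and transcript length taken out, Uqcr11 passed as lower (-0.34, adjusted p = 0.0304), whereas Uqcrb turned to 0.06 (adjusted p = 0.8002). In macrophages given fucoidan, Uqcrc1 and Uqcr10 were at about the same level, with a ratio of 1.28, 0.985 and 1.01 in the 3 L-OHP+FUC libraries, whereas it was 0.417, 0.441 and 0.470 in the L-OHP libraries. Since Uqcrc1 rose and Uqcr10 fell, each with groups apart, this ratio could not overlap between groups. The ratio of the core proteins Uqcrc1 and Uqcrc2 moved less, at 1.36, 1.17 and 0.990 with L-OHP+FUC and 0.780, 0.947 and 0.840 with L-OHP.

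Complex V, whose alpha and beta subunits form the catalytic head, had 2 of 17 members higher and 5 lower. Atp5a1, the alpha subunit, had the highest mean of all members, with 178, 154 and 161 FPKM in L-OHP+FUC macrophages and 128, 118 and 113 FPKM in L-OHP macrophages. Atp5b, the beta subunit that holds the catalytic sites, had 151, 147 and 143 FPKM with L-OHP+FUC and 114, 108 and 103 FPKM with L-OHP. For both, every L-OHP+FUC library lay above every L-OHP library. Their log2 fold changes were close, 0.45 ± 0.10 for Atp5a1 (SE; adjusted p = 0.0198) and 0.44 ± 0.08 for Atp5b (SE; adjusted p = 0.0144). Without L-OHP+FUC replicate 1 neither passed (adjusted p = 0.0720 for Atp5a1 and 0.0576 for Atp5b), nor without L-OHP+FUC replicate 2 (0.0597 for Atp5a1 and 0.0656 for Atp5b). The Atp5a1 to Atp5b ratio stayed between 1.04 and 1.18 with L-OHP+FUC and between 1.09 and 1.12 with L-OHP. The delta subunit of the central stalk, Atp5d, had 36.3, 32.4 and 30.7 FPKM with L-OHP+FUC and 28.7, 27.0 and 23.9 FPKM with L-OHP. It lay higher without overlap but did not pass (adjusted p = 0.0696), while the gamma subunit Atp5c1 and the 3 genes for the c ring, Atp5g1 to Atp5g3, overlapped.

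The 5 complex V members that fell were all small. Atp5k encodes subunit e of the membrane part, which takes part in pairing ATP synthases. It had 14.6, 14.2 and 13.2 FPKM in L-OHP+FUC macrophages and 33.8, 38.3 and 26.4 FPKM in L-OHP macrophages. The lowest L-OHP library was well above the highest L-OHP+FUC library, and the log2 fold change of -1.16 ± 0.14 (SE; adjusted p = 0.00514) was the lowest of all members. The gene (ENSMUSG00000050856) lies on the minus strand at chr5:108433244-108434448. There were 10.4, 10.4 and 10.8 times as many FPKM of Atp5b as of Atp5k in the L-OHP+FUC libraries and 3.37, 2.83 and 3.92 times as many in the L-OHP libraries. With the groups apart in opposite directions for the 2 genes, these ratios had to be apart as well. Atp5j, coupling factor 6 of the stalk, had 6.95, 8.23 and 7.07 FPKM with L-OHP+FUC and 11.7, 11.8 and 11.5 FPKM with L-OHP (log2 fold change -0.60 ± 0.09, SE; adjusted p = 0.00845). Atp5mpl, a small membrane protein of the synthase, had 9.84, 10.8 and 12.6 FPKM with L-OHP+FUC and 16.9, 18.1 and 17.5 FPKM with L-OHP (log2 fold change -0.62, adjusted p = 0.0105). Neither gene's groups overlapped. Atp5md, also known as DAPIT, and Atp5j2, subunit f, fell by less, with log2 fold changes of -0.55 and -0.30 (adjusted p = 0.0255 and 0.0334). Atp5j2 passed only with all 6 libraries or without L-OHP replicate 2, and Atp5md did not pass without L-OHP replicate 3 or L-OHP+FUC replicate 1 or 3 (adjusted p = 0.0544, 0.0874 and 0.0629).

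**Figure D2:**
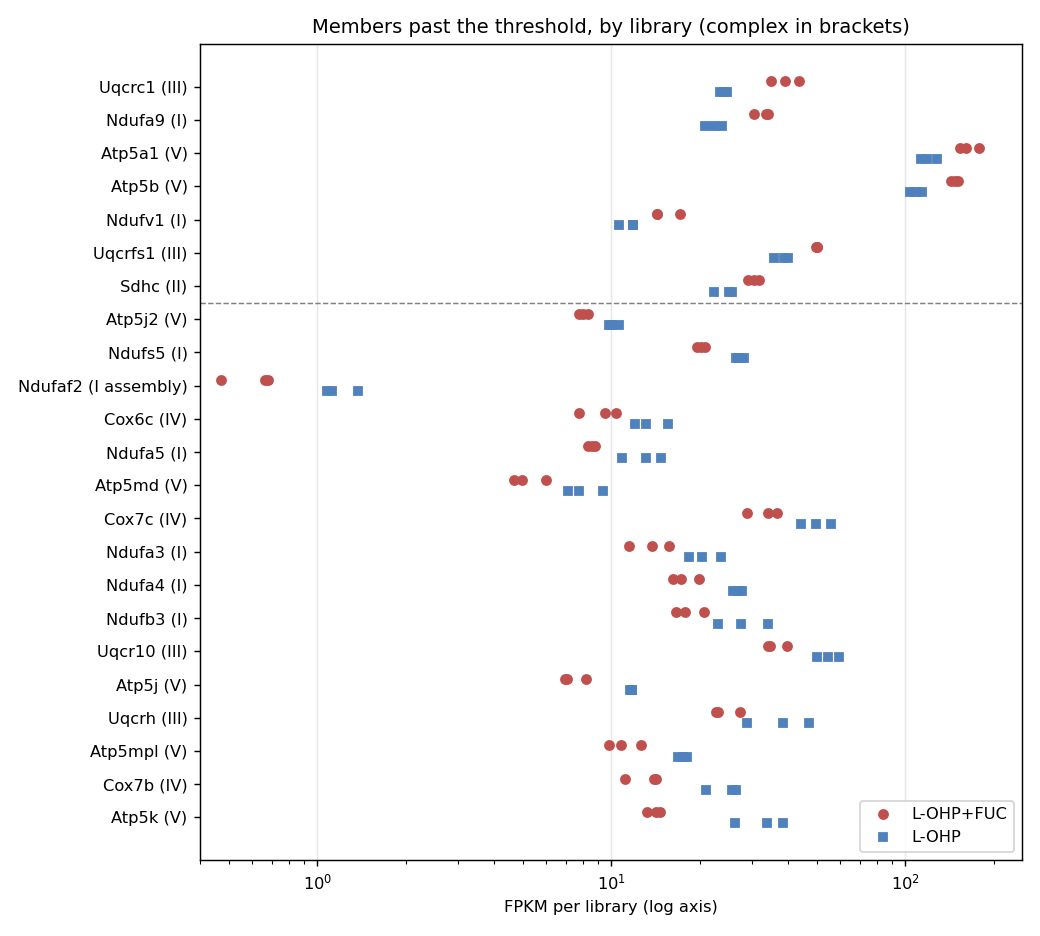
FPKM per library (log axis) of the 23 members past the threshold, with the 7 higher above the dashed line and the 16 lower below it; circles are L-OHP+FUC libraries and squares L-OHP libraries. The 3 circles and the 3 squares of a gene do not overlap for any of them, and the widest gap is that of Atp5k.

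Complex I, the largest, had 2 of 38 members higher and 5 lower. Ndufa9, an accessory subunit at the junction of the matrix and membrane arms, had 34.2, 33.5 and 30.5 FPKM in L-OHP+FUC macrophages and 23.9, 20.9 and 22.3 FPKM in L-OHP macrophages. Its groups were well apart (log2 fold change 0.53 ± 0.09, SE; adjusted p = 0.0105). Ndufv1, the subunit that binds NADH and flavin, had 17.1, 14.3 and 14.3 FPKM with L-OHP+FUC and 11.8, 11.9 and 10.6 FPKM with L-OHP. All 3 L-OHP+FUC libraries were higher (log2 fold change 0.38 ± 0.10, SE; adjusted p = 0.0346). Ndufv1 passed with 1 library left out only where that was L-OHP replicate 2, and Ndufa9 in each case but 1, L-OHP+FUC replicate 2 (adjusted p = 0.0505). Ndufs1, Ndufs3, Ndufs7, Ndufs8 and Ndufv2, core subunits of the matrix arm that mostly carry iron-sulfur clusters, did not pass. They had log2 fold changes of -0.01 to 0.07, and their groups overlapped. Ndufs8 had the highest mean of these, with 20.95, 19.4 and 21.3 FPKM with L-OHP+FUC and 20.5, 21.8 and 17.0 FPKM with L-OHP.

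The 5 complex I members that fell were accessory subunits of 82 to 116 residues. Ndufa4 had 16.2, 19.8 and 17.2 FPKM with L-OHP+FUC and 27.8, 27.1 and 25.9 FPKM with L-OHP (log2 fold change -0.58 ± 0.10, SE; adjusted p = 0.0103). It is counted here by its name, although its protein has since been assigned to complex IV. Ndufs5, a subunit of the intermembrane side, had 19.6, 20.8 and 20.1 FPKM with L-OHP+FUC and 27.2, 26.6 and 28.3 FPKM with L-OHP. Its replicates were the tightest of the 5, and the groups were apart (log2 fold change -0.42 ± 0.08, SE; adjusted p = 0.0122), but it did not pass with the GC and length correction (-0.16, adjusted p = 0.141). Ndufb3 and Ndufa3, both of the membrane arm, and Ndufa5, which sits on the matrix arm, had log2 fold changes of -0.58, -0.57 and -0.53 (adjusted p = 0.0353, 0.0270 and 0.0204). With 1 library left out, Ndufa4 passed in each case, Ndufs5 in each but L-OHP+FUC replicate 2 (adjusted p = 0.0506), and Ndufa3, Ndufa5 and Ndufb3 did not pass once L-OHP+FUC replicate 2 was dropped (adjusted p = 0.0828, 0.0764 and 0.0659) or some of the others. Ndufa2 and Ndufa8, the complex I members with the highest mean levels, did not pass (adjusted p = 0.161 and 0.484). Among the assembly factors, which leave the finished complex, Ndufaf2 fell (log2 fold change -0.45 ± 0.11, SE; adjusted p = 0.0247), with adjusted p-values of 0.0444 to 0.0896 when 1 library was left out. The level of Ndufaf2 is near the minimum, and 65.7% of its exonic bases are shared with a noncoding gene on the other strand that was listed at 0 in all libraries. None of the other 7 passed, and Ndufaf1, with 330 residues, had a log2 fold change of 0.30 with groups apart (adjusted p = 0.127). It passed as higher with the GC and length correction (0.44, adjusted p = 0.0304).

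Complex II has no subunit encoded in mitochondrial DNA. Sdhc, 1 of the 2 membrane anchors, had 31.9, 30.5 and 29.1 FPKM in L-OHP+FUC macrophages and 25.6, 22.4 and 25.1 FPKM in L-OHP macrophages. It was higher in every L-OHP+FUC library (log2 fold change 0.31 ± 0.09, SE; adjusted p = 0.0408), but passed by little and lost the call when any 1 library was left out (adjusted p = 0.0602 to 0.129). Sdhd, the other anchor, had 52.3, 56.4 and 53.0 FPKM with L-OHP+FUC and 60.6, 53.1 and 57.1 FPKM with L-OHP. The catalytic flavoprotein Sdha had 51.3, 56.4 and 52.3 FPKM with L-OHP+FUC and 57.8, 59.5 and 54.5 FPKM with L-OHP. Both overlapped between the groups, as did the iron-sulfur subunit Sdhb (adjusted p = 0.541 for Sdhd, 0.397 for Sdha and 0.206 for Sdhb).

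Complex IV had no member called higher and 3 lower among 13. Its catalytic core is made in the mitochondrion, so its nuclear subunits are all accessory and small. Cox7b had 11.1, 14.2 and 14.0 FPKM with L-OHP+FUC and 25.8, 21.04 and 26.5 FPKM with L-OHP. That is a wide gap between the groups, and the log2 fold change of -0.85 ± 0.13 (SE; adjusted p = 0.00882) was second only to that of Atp5k among the members that fell. Cox7c had 34.1, 36.7 and 28.9 FPKM with L-OHP+FUC and 49.6, 55.7 and 44.2 FPKM with L-OHP (log2 fold change -0.57, adjusted p = 0.0204). Cox6c had 9.48, 10.4 and 7.78 FPKM with L-OHP+FUC and 12.0, 15.6 and 13.1 FPKM with L-OHP (log2 fold change -0.52, adjusted p = 0.0335). Both sets of groups were apart, with Cox6c by the smaller margin. Cox6c did not pass with any 1 library left out (adjusted p = 0.0554 to 0.0868), nor Cox7c without L-OHP replicate 1 or L-OHP+FUC replicate 1 (adjusted p = 0.0638 and 0.0634).

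The most abundant complex IV members did not pass. Cox4i1, the ubiquitous form of subunit 4, had 94.99, 157 and 134 FPKM with L-OHP+FUC and 152, 110 and 127 FPKM with L-OHP. The spread within each group exceeded the difference between them (log2 fold change -0.03 ± 0.21, SE; adjusted p = 0.932). Cox6a1 spread as widely, from 107 to 131 FPKM with L-OHP+FUC and from 86.2 to 177 FPKM with L-OHP, where L-OHP replicate 2 was the highest. Cox6b1, Cox7a2 and Cox8a overlapped too. The forms kept for other tissues were low: Cox4i2, Cox6b2, Cox7a1, Cox7b2, Cox8b and Cox8c were all under the minimum, with 3 of them listed at 0 in all 6 libraries. The exception was Cox6a2, the heart and skeletal muscle form of subunit 6a, with 13.4, 12.3 and 13.8 FPKM with L-OHP+FUC and 8.23, 11.8 and 9.16 FPKM with L-OHP. The L-OHP+FUC libraries were all above the L-OHP libraries, but the difference did not pass (log2 fold change 0.41 ± 0.13, SE; adjusted p = 0.0613). With the GC and length correction Cox6a2 passed as higher (log2 fold change 0.56, adjusted p = 0.0252), as it did without L-OHP replicate 2 (0.55, adjusted p = 0.0160). Of the exonic bases of Cox6a2, 10.3% are shared with Itgad on the other strand, a myeloid integrin gene at 1.96 to 2.51 FPKM with L-OHP+FUC and 2.17 to 2.41 FPKM with L-OHP. Cox7a2l, which joins complexes III and IV into supercomplexes, had 114, 115 and 62.9 FPKM with L-OHP+FUC and 66.0, 89.3 and 67.1 FPKM with L-OHP, so that 1 L-OHP+FUC library was below all 3 L-OHP libraries (adjusted p = 0.335).

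In the uncorrected fit, protein size separated the members that rose from those that fell. The 7 higher members encode 169 to 553 residues (median 464) in the longest annotated coding sequence, and the 16 lower members 58 to 168 residues (median 85), so the ranges do not overlap. The ranges nearly meet, at Sdhc with 169 and Ndufaf2 with 168 residues. Of the 6 fits with 1 library left out, Sdhc lost its call in 6 and Ndufaf2 in 4. Of 21 members under 100 residues none rose and 10 fell, with a median log2 fold change of -0.40. Of 41 members from 100 to under 200 residues 1 rose and 6 fell (median -0.11), of 14 members from 200 to under 400 residues 2 rose and none fell (median 0.04), and of 10 members of 400 residues or more 4 rose and none fell (median 0.22). Among all 10160 protein-coding genes tested, the medians of the 3 smaller classes ran the same way over a narrower range, and that of the class of 400 residues or more lay below the 2 before it. There, 22.8% fell and 6.05% rose under 100 residues (215 genes, median -0.18), 14.3% and 5.74% from 100 to under 200 residues (1185 genes, median -0.07), 11.6% and 9.17% from 200 to under 400 residues (3022 genes, median -0.01), and 21.9% and 9.18% at 400 residues or more (5738 genes, median -0.10). The size classes were chosen after the values had been seen and are given as a description, without a test.

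Across the 86 protein-coding members, Spearman's rho between log2 fold change and residues was 0.63, and across all protein-coding genes tested it was -0.13. By complex it was 0.71 over 37 members of complex I, 0.67 over 8 of complex III, 0.59 over 12 of complex IV and 0.76 over 17 of complex V. Complex II, with 4 members, went the other way (-0.6), and the 8 complex I assembly factors had 0.12. The points share the same 6 libraries and genes are not independent replicates, so no p is given. Leaving out L-OHP replicate 2 gave 0.48 over all members, and leaving out any other library gave 0.61 to 0.69. With the trends on GC content and transcript length taken out, rho was 0.54. The size classes then had medians of -0.23, 0.05, 0.11 and 0.30 from smallest to largest. In the smallest class 1 member, Cox6a2, passed as higher and 6 passed as lower. With coding length in place of transcript length, rho was 0.47 and the medians were -0.14, -0.018, 0.029 and 0.29, against the uncorrected -0.40, -0.11, 0.04 and 0.22. The correction on GC content and transcript length also ended the call of 8 of the 16 lower members and of 1 of the 7 higher. Of the lower members, Ndufa4 then had a log2 fold change of -0.23 (adjusted p = 0.158), Ndufa5 -0.36 (0.0667), Ndufb3 -0.27 (0.253), Ndufs5 the value given above, Uqcrh -0.33 (0.204), Cox6c -0.42 (0.0856), Atp5md -0.34 (0.152) and Cox7c, at 38.4% the lowest in GC content of the members that fell, -0.06 (0.818). The higher member that did not pass was Ndufv1 (0.26, adjusted p = 0.0520). Newly past the threshold as higher were Uqcrc2, Ndufaf1, Ndufb8, Cox6a2 and the pseudogene Ndufb4c, and as lower Uqcr11. Uqcrc1, Atp5k, Cox7b and Atp5j kept their calls, with corrected log2 fold changes of 0.60, -1.05, -0.51 and -0.44. Log2 fold changes also went with transcript length (rho 0.44 over the members and -0.18 over all protein-coding genes tested) and with GC content (0.28 and 0.39). After the correction these were 0.36 and -0.04 for transcript length and -0.03 and -0.01 for GC content. The correction followed trends over all genes, and it left most of the members' own relation to transcript length in place. The part of transcript length and GC content in the result was not tested beyond these corrections.

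**Figure D3:**
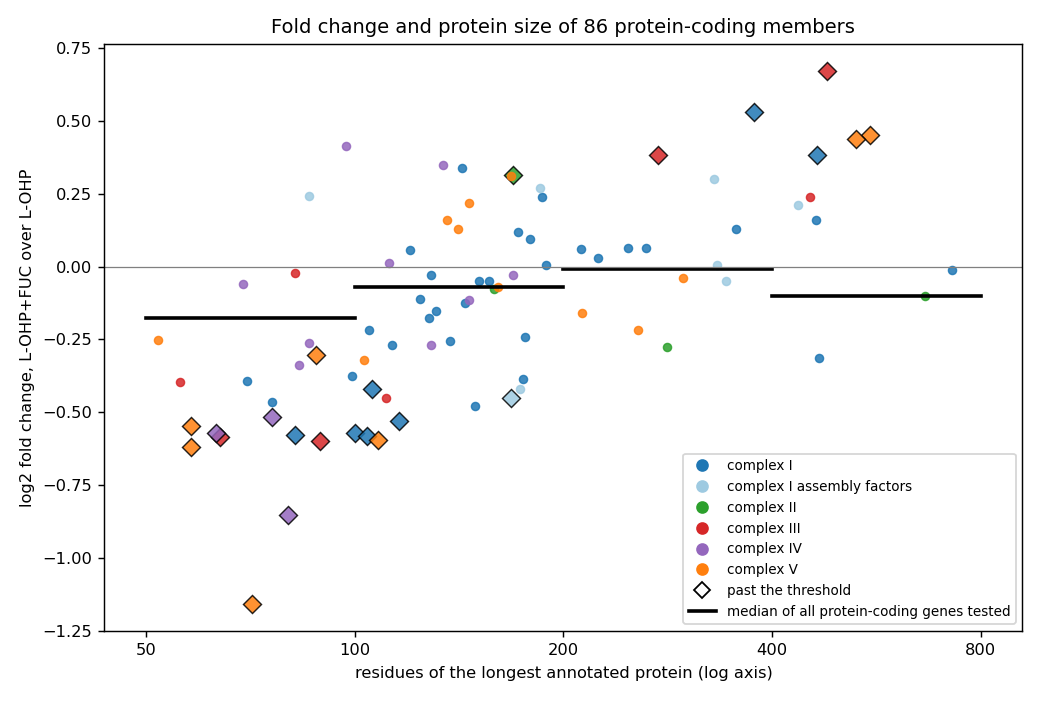
Log2 fold change, L-OHP+FUC over L-OHP, against the residues of the longest annotated protein (log axis) for 86 protein-coding members, coloured by complex. Diamonds passed the threshold, and the black bars give the median of all protein-coding genes tested in each of the 4 size classes; members under 100 residues have a median of -0.40 and those of 400 or more 0.22, while the black bars stay between -0.18 and -0.01.

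The difference between size classes was also read in each library. The mean deviation of the 21 members under 100 residues from their gene means, on the log2 scale, was -0.20, -0.13 and -0.25 in the L-OHP+FUC libraries and 0.19, 0.34 and 0.06 in the L-OHP libraries. For the 24 members of 200 residues or more it was 0.10, 0.05 and 0.03 with L-OHP+FUC and -0.00, -0.08 and -0.10 with L-OHP. Over all 215 tested protein-coding genes under 100 residues the same measure went the same way by less, with -0.09, -0.07 and -0.11 in the L-OHP+FUC libraries and 0.07, 0.19 and 0.02 in the L-OHP libraries. Over the 8760 of 200 residues or more it went the opposite way to the members, with -0.08, -0.06 and -0.0055 with L-OHP+FUC and 0.05, 0.04 and 0.06 with L-OHP. L-OHP replicate 2 was the extreme for short members and L-OHP replicate 3 the nearest to the L-OHP+FUC libraries. Without L-OHP replicate 2, 7 members were higher and 18 lower, and the median of members under 100 residues was -0.31. The summed FPKM of a complex, in which higher and lower members were added, differed less. Complex III subunits summed to 264 ± 9.38 FPKM with L-OHP+FUC and 286 ± 23.6 FPKM with L-OHP (SD, n = 3 each), complex V subunits to 635 ± 28.9 FPKM with L-OHP+FUC and 587 ± 22.3 FPKM with L-OHP, and complex I subunits to 665 ± 36.3 FPKM with L-OHP+FUC and 725 ± 93.5 FPKM with L-OHP. All protein-coding members together held 0.791%, 0.779% and 0.740% of the summed FPKM in the L-OHP+FUC libraries and 0.826%, 0.916% and 0.759% in the L-OHP libraries, which overlap.

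**Figure D4:**
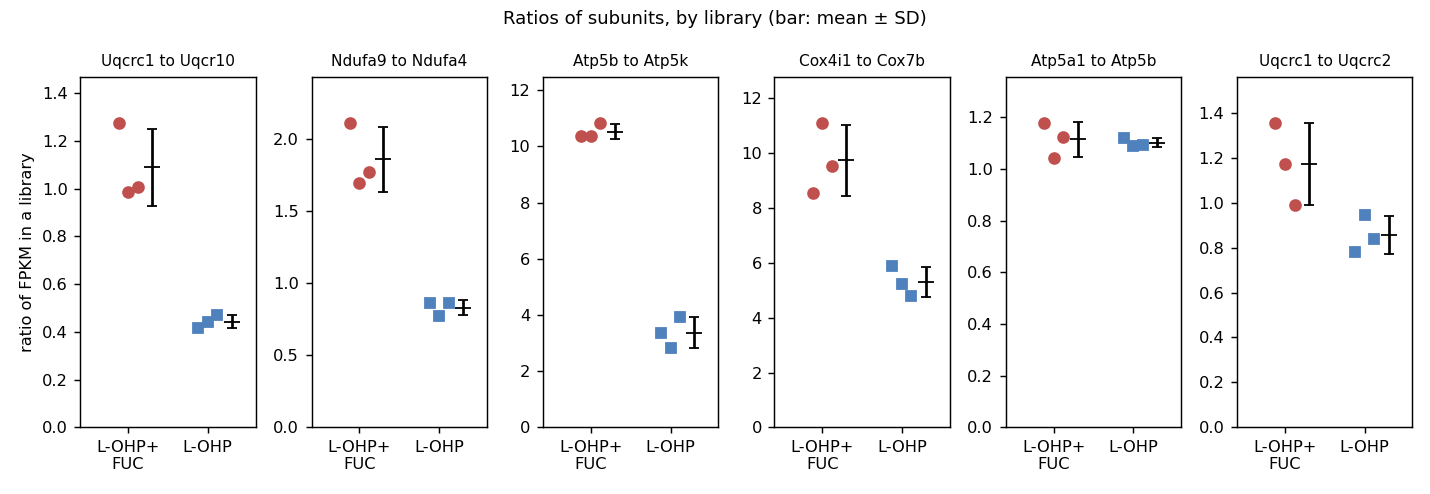
Ratio of the FPKM of 2 subunits in each library, circles for L-OHP+FUC and squares for L-OHP, with the mean ± SD of 3 libraries as a bar; the vertical axes start at 0 and differ in scale. The pairs were chosen after their values were seen: the first 4 set a large or abundant subunit over a small one and do not overlap between groups, Atp5a1 to Atp5b overlaps, and Uqcrc1 to Uqcrc2 is 0.990 to 1.36 with L-OHP+FUC and 0.780 to 0.947 with L-OHP. Uqcrc1 to Uqcr10, Ndufa9 to Ndufa4 and Atp5b to Atp5k each set a member that rose over a member that fell. The groups were apart for both members of these pairs, so their ratios could not overlap.

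Many small subunits have processed pseudogenes whose sequence is nearly that of the gene, so that a read can fit both. At 95% identity over at least 50% of the coding sequence, 23 members had 44 such copies in the table, 42 of them pseudogenes. Copies summed to 1 FPKM or more for 17 members and exceeded the member itself for 5. Atp5l, subunit g of the ATP synthase, averaged 9.38 FPKM, against 40.7 FPKM at its pseudogene Gm10221, and Atp5g1 averaged 3.90 FPKM, against 28.1 FPKM at Gm10039. Ndufa12 averaged 6.36 FPKM and its -ps row 22.7 FPKM. The levels of these members and of Ndufab1 and Atp5md, the other 2, are uncertain. None of the 7 members that rose had a copy, and 7 of the 16 that fell did. With each member and its copies added together, 15 of the 16 stayed lower, but for most of them the sum could change little. It leaves members without a copy as they were, and the copies of Ndufb3, Cox7b, Ndufs5 and Atp5k averaged 0.52 FPKM or less. Cox6c and Atp5md, with larger copies, stayed lower (adjusted p = 0.0210 and 0.0306). The Cox7c pseudogene Gm12338 had 11.7, 13.4 and 13.4 FPKM with L-OHP+FUC and 11.2, 36.3 and 8.35 FPKM with L-OHP. Cox7c did not pass in the sum (adjusted p = 0.0963). In that sum Uqcrb and Uqcr11 passed as lower as well, with log2 fold changes of -0.64 and -0.62 (adjusted p = 0.00926 and 0.0484), although Uqcrb did not keep its direction with the GC and length correction. The sum turned the direction of 4 members that did not pass either way, to a log2 fold change of -0.51 for Atp5g1 (0.16 alone), 0.16 for Ndufa12 (-0.48 alone), 0.18 for Ndufab1 (-0.05 alone) and 0.19 for Ndufb4 (-0.03 alone).

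**Figure D5:**
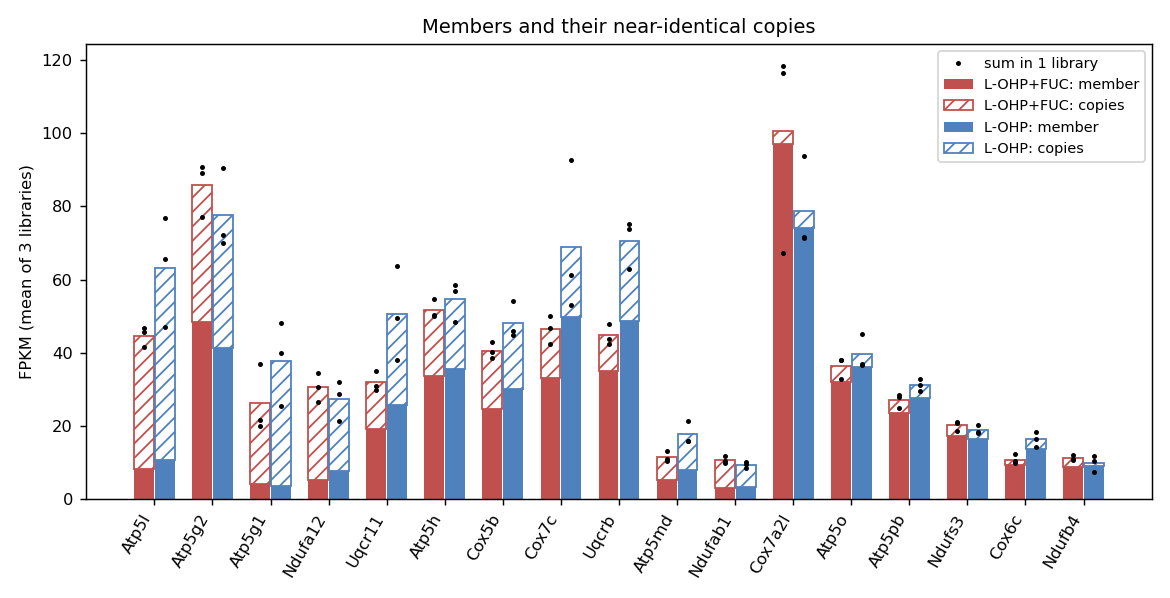
Mean FPKM of 17 members (filled) and of their near-identical copies (hatched) for L-OHP+FUC (left bar of a pair) and L-OHP (right bar), with the sum in each library as a dot. The copies make up most of the sum for Atp5l, Atp5g1 and Ndufa12, and the sum for Cox7c in 1 L-OHP library is far above the other L-OHP libraries.

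Promoters of respiratory genes are known for binding sites of NRF1, of the ETS-family factor GABP (NRF2) and of YY1. RefSeq promoter windows (GRCm38.p6, 250 bases before to 50 after the start) were found for 72 of the 88 members, 77 windows in all. The letters GCATGCG (NRF1), CCGGAAG (ETS) and GATGGCG (YY1) were searched on both strands; matches on opposite strands can share up to 6 bases for NRF1, 4 for ETS and 2 for YY1, and matches of different motifs up to 2 bases. NRF1 letters were in 16.9% of members' windows and 3.58% of all 32851 windows, ETS letters in 24.7% and 8.86%, and YY1 letters in 15.6% and 3.49%. At least 1 of the 3 sets of letters was in 2 of 5 windows of members that rose, 5 of 16 windows of members that fell and 28 of 56 windows of the rest. For each direction, the windows of 2 members are shown, those of smallest p among members with a single window. They hold at most 30 exonic bases and run 5′ to 3′ on the gene's strand, with matched letters in capitals. In the order printed they are chr9:108936398-108936662 (plus strand), chr6:126849115-126849394 (minus), chr5:108434419-108434649 (minus) and chrX:106015450-106015729 (plus).
Uqcrc1: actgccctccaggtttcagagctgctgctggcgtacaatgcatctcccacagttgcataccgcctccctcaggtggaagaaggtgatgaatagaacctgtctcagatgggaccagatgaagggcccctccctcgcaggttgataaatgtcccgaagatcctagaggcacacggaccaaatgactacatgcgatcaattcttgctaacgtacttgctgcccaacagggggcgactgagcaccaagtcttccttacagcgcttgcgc
Ndufa9: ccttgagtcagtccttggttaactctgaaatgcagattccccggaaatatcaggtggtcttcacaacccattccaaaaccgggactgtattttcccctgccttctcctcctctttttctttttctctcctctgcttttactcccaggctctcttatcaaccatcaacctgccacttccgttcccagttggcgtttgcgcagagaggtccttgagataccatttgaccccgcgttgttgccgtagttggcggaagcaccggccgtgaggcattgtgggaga
Atp5k: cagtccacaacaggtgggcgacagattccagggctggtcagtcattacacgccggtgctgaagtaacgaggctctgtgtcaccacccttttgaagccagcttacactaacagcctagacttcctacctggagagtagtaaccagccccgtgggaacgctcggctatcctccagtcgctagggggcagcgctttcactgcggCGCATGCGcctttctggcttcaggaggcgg
Cox7b: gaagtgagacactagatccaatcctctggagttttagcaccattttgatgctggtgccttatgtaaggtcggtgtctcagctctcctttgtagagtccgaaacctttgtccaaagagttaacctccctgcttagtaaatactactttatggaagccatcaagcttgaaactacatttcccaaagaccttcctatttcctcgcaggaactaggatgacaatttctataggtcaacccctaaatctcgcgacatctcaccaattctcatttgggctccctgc
Only the Atp5k stretch holds a match, the NRF1 letters on both strands at its CGCATGCG. Past the stretches shown, the windows of Uqcrc1, Ndufa9 and Atp5k hold NRF1, YY1 and ETS letters in that order, and that of Cox7b holds none.

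Atp5j and Gabpa, the gene for the DNA-binding subunit of GABP, lie head to head on chromosome 16 and share 397 exonic bases, 12.7% of those of Atp5j. The Atp5j window at chr16:84834927-84835226, within this overlap, was the only window of a member past the threshold that held all 3 motifs. Gabpa fell as Atp5j did, with 4.62, 5.22 and 6.51 FPKM in L-OHP+FUC macrophages and 7.52, 7.55 and 7.94 FPKM in L-OHP macrophages (log2 fold change -0.44 ± 0.12, SE; adjusted p = 0.0389). Its groups were apart. The use of strand in the authors' counting is not given in the sources used here, so reads from the shared bases cannot be assigned to either gene. With the GC and length correction Gabpa did not pass (log2 fold change -0.11, adjusted p = 0.332).

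The 13 subunits encoded in mitochondrial DNA did not pass in limma in either direction. Of the 13, 3 had an unadjusted p under 0.05, against 5048 of 12084 among all genes tested. The median log2 fold change of the 13 was 0.33. mt-Co1, the catalytic subunit of complex IV, had 10660, 9847 and 9811 FPKM with L-OHP+FUC and 6561, 5990 and 8349 FPKM with L-OHP. mt-Cytb of complex III had 1641, 1976 and 2128 FPKM with L-OHP+FUC and 1484, 1235 and 1877 FPKM with L-OHP. The groups were apart for mt-Co1 (adjusted p = 0.0676) and overlapped for mt-Cytb (adjusted p = 0.230). In both, L-OHP replicate 2 was the lowest library. With the GC and length correction 9 of the 13 passed as higher, with a median of 0.76, against 11.5% higher and a median of 0.01 over all genes tested. These calls thus appeared only with the correction. Whether trends taken over all genes hold for these 13 was not tested.

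Of 75 tested genes in 4 other lists of the pathway, 18 passed (24.0%), near the 27.0% of all genes tested (3262 of 12084). Of 6 tested carriers and subunits outside the name pattern, Etfb, which brings electrons from fatty acid oxidation to the chain, rose, with 29.8, 29.0 and 24.8 FPKM with L-OHP+FUC and 17.2, 15.2 and 15.4 FPKM with L-OHP (log2 fold change 0.77 ± 0.10, SE; adjusted p = 0.00637). Atpif1, the inhibitor of ATP hydrolysis by complex V, fell, with 29.1, 29.6 and 28.8 FPKM with L-OHP+FUC and 47.8, 47.0 and 45.8 FPKM with L-OHP (log2 fold change -0.67 ± 0.07, SE; adjusted p = 0.00432). For both genes the groups were far apart compared with the spread within them. Cyc1, the cytochrome subunit of complex III, and Cycs, cytochrome c, did not pass (adjusted p = 0.0966 and 0.607).

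Of 43 tested assembly factors outside the pattern, 2 rose and 7 fell, with a median log2 fold change of -0.11. Those that fell were led by Cox20, a chaperone for a mitochondrially encoded complex IV subunit, with 5.19, 4.09 and 4.70 FPKM with L-OHP+FUC and 12.9, 13.0 and 13.2 FPKM with L-OHP. Its log2 fold change of -1.31 ± 0.10 (SE; adjusted p = 0.00252) exceeded that of every member. Pet100 and Cmc1, also complex IV factors, followed with -0.93 and -0.70 (adjusted p = 0.00523 and 0.00684). Cox10, of heme A synthesis, and Sco2, which delivers copper, were the 2 that rose (log2 fold changes 0.42 and 0.99), of which Sco2 did not pass with the GC and length correction (adjusted p = 0.0620). Of 13 genes of coenzyme Q synthesis, Coq8b and Coq10a rose and Pdss1 fell (15.4% higher and 7.69% lower, median 0.16). With the GC and length correction Coq10a (adjusted p = 0.0774) and Pdss1 (log2 fold change -0.017, adjusted p = 0.927) did not pass, while Coq3 and Coq10b passed as higher (adjusted p = 0.0378 and 0.0125). Of 13 tested regulators of respiratory genes none rose and 4 fell, namely Gabpa, Gabpb2, Yy1 and Tfb2m (30.8% lower, against 19.3% of all genes tested; median -0.26). With the GC and length correction 1 rose and 3 fell: Yy1 and Tfb2m did not pass (adjusted p = 0.104 and 0.126), nor did Gabpa, while Gabpb2 did, Ppargc1b and Polrmt passed as lower and Tfb1m as higher (adjusted p = 0.0433, 0.0194 and 0.0151). Gabpb2, a partner of Gabpa, had 1.599, 1.97 and 2.49 FPKM with L-OHP+FUC and 4.03, 3.81 and 4.13 FPKM with L-OHP (adjusted p = 0.0106). Ppargc1a, the coactivator PGC-1alpha, was listed at 0 in all 6 libraries, and Nrf1, Ppargc1b and Tfam did not pass in the uncorrected fit (adjusted p = 0.954, 0.132 and 0.776).

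In the authors' deposited table, 1 protein-coding member, Atp5k, was marked as significant, with a fold of 0.426 (L-OHP+FUC over L-OHP) and a q-value of 5.49e-05. By q-value alone, 12 protein-coding members were under 0.05 in the authors' deposited table, Atp5k among them, with Uqcrc1 at 2.4e-05, Ndufa9 at 0.00115, Cox7b at 0.00162, Atp5a1 at 0.00383 and Atp5b at 0.00384. The share of all genes under 0.05 by that q-value was not worked out here, so these counts have no background beside them. The pseudogene row Ndufb4c was marked too, with a fold of 3.12 and a q-value of 0.0476 in the authors' deposited table. Its FPKM, however, were 3.48, 2.31 and 1.70 with L-OHP+FUC and 1.72, 0.450 and 0.228 with L-OHP, which overlap. Ndufb4c did not pass in the uncorrected limma fit (log2 fold change 1.02, SE 0.32, adjusted p = 0.0573).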

How the data were processed

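Total RNA was depleted of ribosomal RNA, fragmented by heat and reverse transcribed from random primers, per the labels' protocols. The table deposited by the authors gives FPKM for each gene in each library, per the file headers. Its placeholder of 0.0001 was read as 0. The ratio, log2 ratio, p-value and q-value columns were the authors', per the file headers. HISAT2, StringTie, DESeq2, limma, bcl2fastq 2.0 and mm10 are named in the submitters' processing notes without roles. How the authors used strand, and which annotation, is not given in the sources used here.

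Values of log2(FPKM + 1), a scale that understates the change of low genes, were fitted in limma 3.58.1 under R 4.3.3 with group as the only term. Moderation followed an intensity trend, tests were two-sided, and p-values were adjusted by Benjamini-Hochberg, with 0.05 as the threshold, over 12084 genes at 0.5 FPKM or more in at least 3 of 6 libraries. Fold changes are L-OHP+FUC over L-OHP. Gene positions, biotypes, coding lengths and GC content came from GENCODE M21 (GRCm38), matched for 99.5% of gene IDs. The correction subtracted a loess trend (span 0.3, 4 iterations) on GC content and then log2 transcript length from each library. Copies were found with blastn 2.17.0. The tests were tried on simulated data. Among tested genes, at most 13 values were identical between any 2 libraries.

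The members, gene lists and tests were chosen with earlier results of these data known. Named were, per complex, up to 5 called members with the smallest p in each direction, the 2 most abundant, all Sdh genes, tissue isoforms and core subunits, and up to 3 genes of each pathway list; others named (copies, overlapping genes, ratio pairs, the remaining called members, members just short of the threshold) were chosen after their values were seen. A gene that this rule names is not reported here. Alternatives were another pseudocount, filters, rescaling, quantile normalization, a replicate block, moderation without the trend, other thresholds and leaving out each library; the correction on coding length and the sum of copies were added after seeing the data.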

Additional observations from a re-analysis of the deposited data

How the results depend on the processing

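The 7 higher and 16 lower members kept their direction under each of 20 alternatives in which they were tested. Many of these could not turn a direction. Other thresholds, filters, moderation without the trend and the replicate block leave log2 fold changes as they were. The sum of copies does so for a member without any. Leaving out 1 library cannot reverse a member whose groups do not overlap, and the groups of these members do not. Against 7 members higher and 16 lower, the counts were 11 and 9 with the GC and length correction, 11 and 10 with coding length in it, 12 and 11 with quantile normalization, 11 and 22 at an adjusted p of 0.1, and 1 and 3 at 0.01, while no filter left 5 and 10. Leaving out 1 library gave 1 to 7 higher and 8 to 18 lower. The labels do not tell whether the replicate numbers pair the samples. Same-numbered libraries had deviations from group means correlated at -0.04, -0.07 and 0.08, and differently numbered ones at -0.15 to 0.16. With 3 libraries in a group these values cannot decide it. With the number as a replicate block the counts were 5 and 14, and with the GC and length correction and the block together 4 and 3; the cause was not tested.

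Changes of sign among all 88 members numbered 18 with the GC and length correction and 4 with copies summed, none of them in a called member. Among these were Uqcrb, which turned to 0.060 with the correction but passed as lower without L-OHP replicate 2 (adjusted p = 0.0153), and Atp5l, which turned to 0.10 but passed as lower without L-OHP replicate 2 (adjusted p = 0.0259). Among the members and list genes that the naming rule gave, changes of sign concerned 12, which did not pass in any of these fits. With the GC and length correction, log2 fold changes turned to 0.021 for Cox8a, 0.17 for Cycs, 0.11 for Ndufs1, -0.019 for Ndufs7, 0.15 for Nrf1, 0.039 for Sdhd and 0.14 for Tfam, the same with the replicate block. With coding length in the correction they turned to -0.10 for Cox6a1, 0.28 for Cycs, 0.19 for Ndufs1, -0.044 for Ndufs3, -0.16 for Ndufs7, -0.063 for Ndufs8, 0.13 for Nrf1, 0.0116 for Sdha and 0.084 for Tfam. With median ratio rescaling they turned to 0.062 for Cox4i1, 0.029 for Cox8a, 0.068 for Ndufs1, 0.032 for Nrf1, 0.013 for Sdhd and 0.042 for Tfam, with quantile normalization to -0.037 for Cox6a1, 0.11 for Ndufs1, 0.22 for Nrf1 and 0.11 for Tfam, and with a pseudocount of 0.1 to 0.0015 for Nrf1. Leaving out 1 library gave -0.19 to 0.17 for Cox4i1, -0.21 to 0.31 for Cox6a1, -0.13 to 0.073 for Cox8a, -0.16 to 0.032 for Cycs, -0.12 to 0.051 for Ndufs1, -0.030 to 0.11 for Ndufs7, -0.041 to 0.13 for Ndufs8 and -0.13 to 0.15 for Nrf1.

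The deposited FPKM give no read counts, and no counting error stands beside low members such as Ndufaf2 and Ndufb2.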
